A study of Mus musculus with 6 samples.

Results

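Steroid reductases, aldo-keto reductases and 11β-hydroxysteroid dehydrogenases change steroid hormones after they have been made. The genes described here were set by name: Srd5a1, Srd5a2, Srd5a3, Akr1c14, Akr1c18, Hsd11b1 and Hsd11b2. Of these 7 genes, 6 had a row in the deposited table of 16454 genes, and Srd5a2, which encodes a steroid reductase of male reproductive tissue, was not measured. The 7 symbols were chosen with earlier results of the same ovaries in view, and may have been selected on the difference between lineages, which for Srd5a1 was already known. Their differences between groups are therefore given as descriptions, with errors and counts but without a test of their own.

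Steroid 5α-reductases reduce a double bond in testosterone and progesterone, which gives dihydrotestosterone and dihydroprogesterone. Enzymes of the AKR1C group of aldo-keto reductases then reduce keto groups at other positions, and most of these products bind the classical steroid receptors weakly. The 11β-hydroxysteroid dehydrogenases form a pair that works in opposite directions on glucocorticoids: HSD11B1 regenerates the active hormone and HSD11B2 inactivates it. In the ovary these steps set how much progesterone, androgen and glucocorticoid stays active around the follicle and, after ovulation, in the corpus luteum.

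RNA was measured in whole ovaries of CD1 mice of generation 3, collected on postnatal day 21. The founding dams had received di(2-ethylhexyl) phthalate (DEHP), a plasticizer, at 20 µg/kg/day, or vehicle, named in the series' description as corn oil stripped of tocopherol. The mice sequenced here descend from those dams, and each lineage is represented by 3 ovaries sequenced one by one. The labels do not say whether ovaries of one lineage came from separate litters or founders, so the spread reported is that between these ovaries. Values are log2 CPM, that is read counts scaled to the size of the library (CPM), on a log2 scale, from which the authors had removed a surrogate variable, an estimated direction of unwanted variation. The removed direction weighed most on DEHP replicates 1 and 3 (-0.60 and 0.75), which makes those ovaries look alike and makes SDs in the DEHP lineage too small. The summed CPM lay between 979868 and 1026735 per ovary, and the number of reads behind each value is unknown. All 12 granulosa cell markers and all 12 oocyte markers were measured, with summed levels of 11093 to 13660 CPM and 1148 to 1596 CPM per ovary.

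Akr1c14 and Akr1c18 are neighbours on chromosome 13 and close relatives, and the start of their coding sequences shows how far reads can tell them apart. The first 90 coding bases of each follow, 5′ to 3′, with the 34 positions at which they differ in capitals.
Akr1c14: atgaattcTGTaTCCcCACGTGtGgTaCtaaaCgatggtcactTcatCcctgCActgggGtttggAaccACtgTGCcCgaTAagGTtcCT
Akr1c18: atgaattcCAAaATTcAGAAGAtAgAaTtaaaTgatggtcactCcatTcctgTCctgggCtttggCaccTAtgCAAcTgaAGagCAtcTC
Over their whole coding length of 969 bases, 76.0% of positions were identical, and the longest identical run was 48 bases, shorter than the 101 sequencing cycles of a read. Of all 31-base words in the transcripts of GENCODE's annotation, 4.15% of those of Akr1c18 and 7.23% of those of Akr1c14 also occurred in another gene. Srd5a1 shared 15.67%, all with Gm17108, an annotated gene on the same strand that overlaps it and was not analysed here. Hsd11b1 and Hsd11b2 shared 0% and Srd5a3 0.79%. Srd5a1 and Hsd11b1 also overlap genes on the opposite strand (Nsun2, and Lamb3 with 4930570N18Rik), and the sources used here do not state the strand setting of the counting.

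The DNA before the transcription starts of Srd5a1 and Akr1c18 is shown because both were highest in control replicate 3. The stretch listed for Akr1c14, the abundant relative, is added. The sequences are those of RefSeq's promoter table for GRCm38.p6, without annotated exon bases, and capitals mark the GC box GGGCGG on either strand.
Srd5a1, chr13:69611486-69611713, minus strand: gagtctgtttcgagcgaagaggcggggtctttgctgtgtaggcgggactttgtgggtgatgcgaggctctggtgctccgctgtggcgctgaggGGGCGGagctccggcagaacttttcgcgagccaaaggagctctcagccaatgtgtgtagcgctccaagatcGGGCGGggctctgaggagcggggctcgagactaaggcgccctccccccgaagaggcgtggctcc
Akr1c18, chr13:4150655-4150896, minus strand: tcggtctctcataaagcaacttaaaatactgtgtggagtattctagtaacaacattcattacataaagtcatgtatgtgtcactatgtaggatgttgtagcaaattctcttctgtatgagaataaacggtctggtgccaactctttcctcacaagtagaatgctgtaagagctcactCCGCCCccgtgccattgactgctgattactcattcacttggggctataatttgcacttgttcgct
Akr1c14, chr13:4059341-4059540, plus strand: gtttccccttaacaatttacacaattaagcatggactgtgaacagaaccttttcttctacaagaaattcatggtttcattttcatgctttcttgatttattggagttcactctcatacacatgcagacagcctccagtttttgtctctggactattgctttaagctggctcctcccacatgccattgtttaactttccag
The stretch of Srd5a1 holds 2 GC boxes, that of Akr1c18 holds 1 and that of Akr1c14 holds 0. The Akr1c14 stretch precedes the start in that table, but the stretch itself lies inside the span of the gene, which begins at 4048991. It may be intron and not promoter DNA, so its counts of motifs and bases need not be those of a promoter. The full window of 250 bases before the start of Srd5a1 holds 3, and of all 32851 such windows 32.7% hold the motif. G and C make up 64.8% of the Srd5a1 window, against 41.6% for Akr1c18 and 38.8% for Akr1c14 and a median of 52.4% over all windows. The letters AAGGTCA, a site for the gonadal NR5A receptors, were searched on both strands and occur in 4.1% of all windows and in 0 of these 3. Hsd11b2 had no entry in the table.

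Levels of the 6 genes spanned a wide range. To compare genes, CPM was divided by the length of all annotated exons of a gene in kb. Akr1c14, which encodes a 3α-hydroxysteroid dehydrogenase that acts on 5α-reduced steroids, was highest, at 212 ± 34.3 CPM per kb (SD, n = 6 ovaries). Hsd11b2 followed at 56.3 ± 15.5 CPM per kb. Akr1c14 stood above Hsd11b2 in 6 of 6 ovaries, by 2.46 to 4.74 times, and their ranges did not overlap. Srd5a1 (10.3 ± 4.02 CPM per kb) and Srd5a3 (6.45 ± 0.38) came next, and Srd5a1 was above Srd5a3 in 6 of 6 ovaries with overlapping ranges. That order depends on the length used: with the longest transcript as length, Srd5a3 was at 13.5 and Srd5a1 at 11.4 CPM per kb. Akr1c18 and Hsd11b1 were lowest, at 0.499 ± 0.198 and 0.313 ± 0.137 CPM per kb, with overlapping ranges and an order that likewise turned with the longest transcript (0.502 and 0.672).

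**Figure D1:**
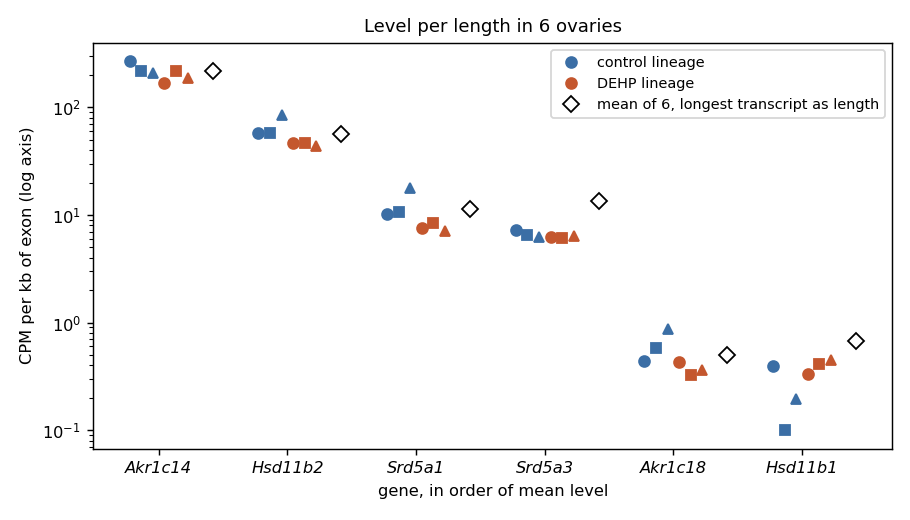
Level per length (CPM per kb of exon, log axis) of each measured gene in 6 ovaries, with the mean under another gene length as open diamonds. Akr1c14 lies highest at 168 to 269 CPM per kb, Hsd11b2 next at 44.1 to 85.6, and Akr1c18 and Hsd11b1 lie below 1.

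Among all genes of the table, the mean level of Akr1c14 was at percentile 99.3, that of Hsd11b2 at 84.1, those of Srd5a3 and Srd5a1 at 55.7 and 54.8, and those of Hsd11b1 and Akr1c18 at 14.4 and 4.0. Akr1c14 was 244 to 679 times as abundant per kb as its neighbour Akr1c18 within the same ovary. The low rank of Akr1c18 matters for its differences, since a small constant added before logs are taken, whose size no source here states, weighs most on genes near the bottom of the table.

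Between lineages, 5 of the 6 measured genes had a lower mean in the DEHP lineage and Hsd11b1 a higher one, with a median log2 difference of -0.40. Over all genes the median was -0.01, and 53.1% had a lower mean. The lineages did not overlap for Srd5a1, Hsd11b2 and Akr1c18, all lower in the DEHP lineage, while 22.9% of all genes did not overlap and 12.2% did so in the lower direction. No gene of the 6 passed an adjusted p of 0.05 in the fit across the table (limma with Benjamini-Hochberg adjustment, 0 of 6), where 0.0425% of all genes passed, 0.0182% lower and 0.0243% higher in the DEHP lineage. Since earlier results chose the genes, nothing is read from these shares. In the authors' deposited table the adjusted p values of the 6 genes lay between 0.731 and 0.937.

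**Figure D2:**
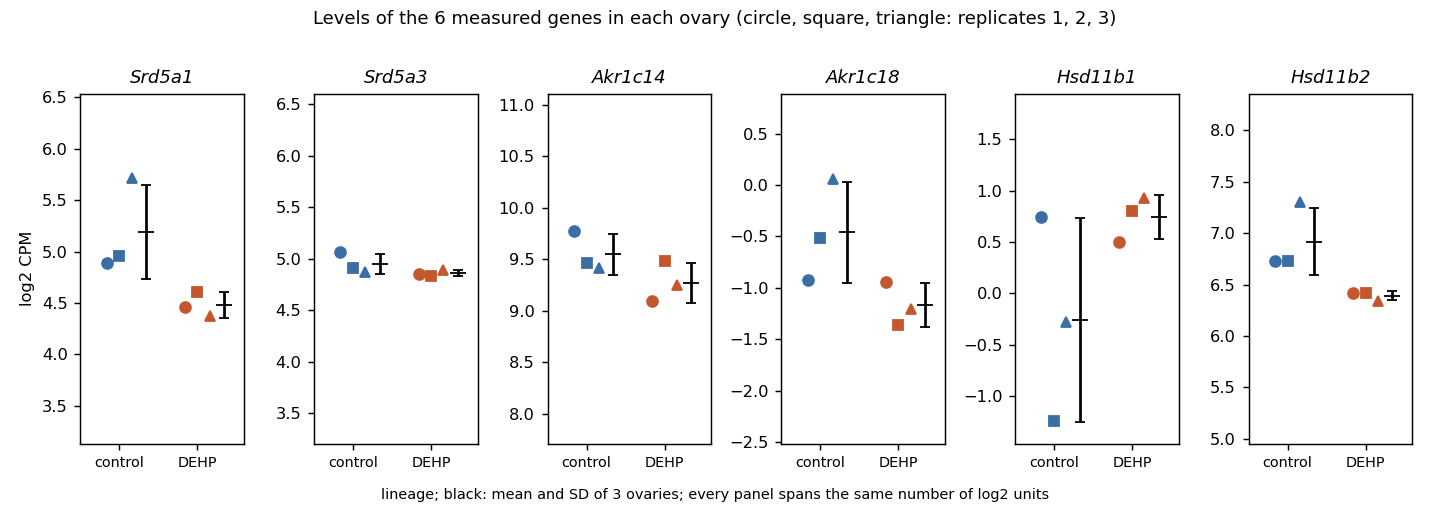
Log2 CPM of each measured gene in 3 control-lineage ovaries (blue) and 3 DEHP-lineage ovaries (orange), with mean and SD in black. The lineages are apart for Srd5a1 (by 0.28 log2 units), Hsd11b2 (0.31) and, barely, Akr1c18 (0.02), and they overlap for Srd5a3, Akr1c14 and Hsd11b1.

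Srd5a1 (Entrez 78925, chromosome 13, 69573449 to 69611485, minus strand, GRCm38.p6) encodes the type 1 steroid 5α-reductase, which reduces progesterone and testosterone. It was at 29.7, 31.1 and 52.4 CPM in control replicates 1, 2 and 3 and at 22, 24.5 and 20.7 CPM in the same order of the DEHP lineage. Every DEHP ovary lay below every control ovary, and control replicate 3 stood well above the other control ovaries. The means were 37.7 ± 12.7 and 22.4 ± 1.91 CPM (SD, n = 3 each), a log2 difference of -0.71 (SE 0.22, 95% interval -1.22 to -0.20). Without control replicate 3 the difference was -0.445, so that ovary moved the value by 1.59 times. In whole ovaries, fewer cells of a type and less RNA per cell cannot be told apart.

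Srd5a3 (Entrez 57357, chromosome 5, 76140273 to 76155503, plus strand) is the family member best known for another task, the reduction of polyprenol to dolichol, the lipid that carries sugars for protein glycosylation. It was at 33.4, 30.1 and 29.2 CPM in the control ovaries and 28.9, 28.5 and 29.7 CPM in the DEHP ovaries. These were the steadiest values of the 6 genes, and the lineages overlapped. The log2 difference was -0.09 (SE 0.093, interval -0.31 to 0.13), and it was -0.03 without control replicate 1, the highest ovary. The interval leaves room for a difference of 0.31 log2 units downward, so equal levels are not shown.

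Akr1c14 (Entrez 105387, chromosome 13, 4048991 to 4090560, plus strand) reduces the products of SRD5A1 at the next position. Its level was 873, 702 and 681 CPM in the control ovaries and 544, 712 and 609 CPM in the DEHP ovaries. DEHP replicate 2 lay inside the control range, and control replicate 1 was highest. The log2 difference was -0.27 (SE 0.14, interval -0.60 to 0.06), with a value of -0.16 without control replicate 1 and -0.18 without DEHP replicate 1. The SDs of the 2 lineages were alike on the log2 scale, at 0.20 and 0.19 (n = 3 each), whereas for the other 5 genes the control SD was 2.32 to 7.56 times that of the DEHP lineage.

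Akr1c18 (Entrez 105349, chromosome 13, 4132615 to 4150646, minus strand) encodes 20α-hydroxysteroid dehydrogenase, which inactivates progesterone and is known as a marker of the regressing corpus luteum. It was at 0.529, 0.7 and 1.04 CPM in the control ovaries and 0.522, 0.391 and 0.435 CPM in the DEHP ovaries. The highest DEHP ovary and the lowest control ovary were 0.02 log2 units apart, so the lineages were barely apart. The log2 difference of -0.71 (SE 0.39, interval -1.62 to 0.21) was -0.45 without control replicate 3. With 1 CPM added before taking logs it was -0.27, because the levels are so low.

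Hsd11b2 (Entrez 15484, chromosome 8, 105518746 to 105523988, plus strand), which inactivates glucocorticoids, was at 106, 106 and 157 CPM in the control ovaries. In the DEHP ovaries it was at 85.6, 85.3 and 81.1 CPM. Again every DEHP ovary lay below every control ovary and control replicate 3 was the highest. The log2 difference was -0.53 (SE 0.16, interval -0.89 to -0.16), and without control replicate 3 it was -0.34, a change of 1.57 times. The SD was 2.51 CPM in the DEHP ovaries, where the removed direction makes it too small, and 29.7 CPM in the control ovaries (n = 3 each).

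Hsd11b1 (Entrez 15483, chromosome 1, 193221640 to 193264045, minus strand), which regenerates active glucocorticoid in liver and fat, was the only one of the 6 genes with a higher mean in the DEHP lineage. It was at 1.67, 0.424 and 0.825 CPM in the control ovaries and 1.42, 1.74 and 1.9 CPM in the DEHP ovaries. Control replicate 1 lay among the DEHP ovaries, and control replicates 2 and 3 lay below all of them. The log2 difference of 1.00 (SE 0.51, interval -0.18 to 2.19) was 0.51 without control replicate 2, a change of 1.96 times. In the authors' deposited table its log2 fold change was 0.74.

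**Figure D3:**
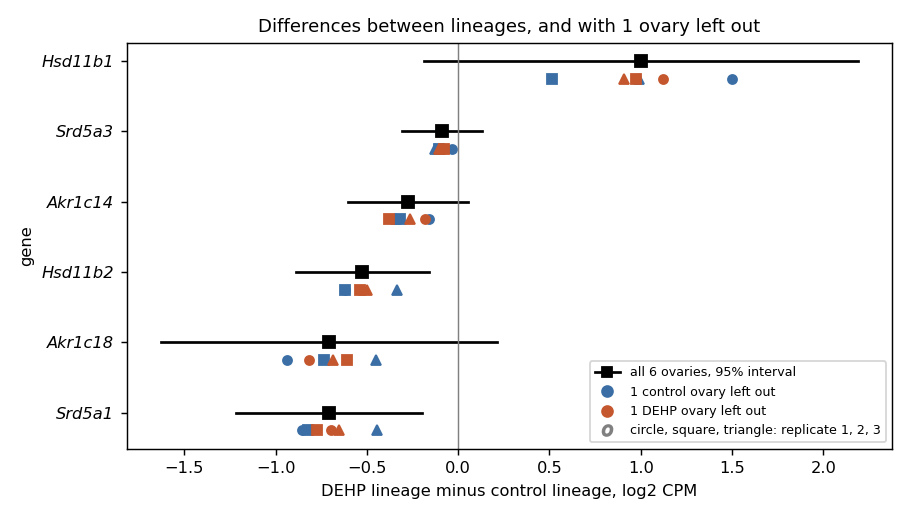
DEHP lineage minus control lineage in log2 CPM for each gene, with the 95% interval (black) and the value with 1 ovary left out (coloured; colour gives the lineage and shape the replicate of the ovary left out). Leaving out control replicate 3 moves Srd5a1 to -0.445, Hsd11b2 to -0.34 and Akr1c18 to -0.45, and leaving out control replicate 2 moves Hsd11b1 to 0.51.

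Set against each other per kb, Hsd11b2 exceeded Hsd11b1 in 6 of 6 ovaries, by 98.7 to 577 times. The log2 ratio was 7.20, 9.17 and 8.78 in the control ovaries and 7.13, 6.82 and 6.63 in the DEHP ovaries. The DEHP ratios were all below the control ratios, but control replicate 1 lay close above DEHP replicate 1. The size of these ratios depends on the length used. With the longest transcript, Hsd11b1 was at 0.672 and not 0.313 CPM per kb, while Hsd11b2 stayed at 56.3. The levels of Hsd11b1 were also low, at 0.424 to 1.9 CPM. For the consecutive steps of 5α and 3α reduction, the log2 ratio of Akr1c14 to Srd5a1 was 4.72, 4.34 and 3.54 in the control ovaries. It was 4.47, 4.71 and 4.72 in the DEHP ovaries, so the lineages overlapped.

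Srd5a1 and Hsd11b2 had the most parallel values of any pair among the 6 genes, with a Pearson r of 0.99 and a Spearman rho of 0.89 over 6 ovaries. The correlation was 0.98 for the deviations from the lineage means and 0.97 without control replicate 3. The first value still holds control replicate 3, and the second still holds the gap between lineages, so neither is free of both. Among the 3 ovaries of 1 lineage, the correlation was 1.0 for control and 0.74 for DEHP. Akr1c18 went with both, with r of 0.91 to Srd5a1 and 0.93 to Hsd11b2, which were 0.68 and 0.76 without control replicate 3 and -0.50 and 0.20 among the 3 DEHP ovaries. Akr1c14 had r of 0.76 to Srd5a3, which was 0.15 without control replicate 1, and 0.07 to Akr1c18. All genes are read from the same 6 libraries with the same direction removed, and high values are common over so few points: of 13058 genes with a mean log2 CPM of at least 1, 148 had an r above 0.95 to Srd5a1 and 118 one below -0.95.

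By pattern over the 6 ovaries, the genes most like Srd5a1 were Kcnk5 (Pearson r 0.997), Aebp2 (0.996) and Elp4 (0.996). Those most like Hsd11b2 were Exog (0.999), Mrpl44 (0.997) and again Elp4 (0.996). Abcd2 (0.998), Otub2 (0.994) and Tmem237 (0.994) were nearest to Akr1c14, and Thap3 (0.998), Ddx47 (0.995) and Tmem41a (0.994) to Srd5a3. Among cell type marker lists, theca and interstitial markers had the highest median r to Srd5a1 (0.56, 9 genes, range -0.69 to 0.97), with oocyte markers next at 0.55. Oocyte markers had the highest to Hsd11b2 (0.64, 12 genes, range -0.30 to 0.85), with theca markers at 0.58 (-0.66 to 0.97). Oocyte markers also had the highest to Srd5a3 (0.55, range 0.19 to 0.83). Endothelial markers had the highest to Akr1c14 (0.62, 8 genes, range -0.10 to 0.90), with adipocyte markers close at 0.59 and between 0.36 and 0.96 for all 10 genes. The erythroid list ran opposite to Akr1c14, with a median r of -0.93 over 5 genes.

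Those marker lists also differed between ovaries. Theca and interstitial markers were lower in the DEHP lineage in 8 of 9 genes, with no overlap for 3 of the 9. Their summed level was 3050 to 3761 CPM in the control and 2875 to 2977 CPM in the DEHP ovaries, without overlap. Most of that sum was Hsd3b1, at a mean log2 CPM of 11.19 in the control and 11.01 in the DEHP ovaries. Its difference was -0.18 (SE 0.14), so the gap in the sum need not hold for the other markers. Oocyte markers were lower in 11 of 12 genes, at 1237 to 1596 CPM against 1148 to 1294. No marker of either list passed the adjusted p (0 of 21 measured), and their part in the lower Srd5a1 and Hsd11b2 was not tested. Control replicate 3, highest for Srd5a1, Hsd11b2 and Akr1c18, was also highest for 4 of 9 theca markers and 6 of 12 oocyte markers. It was highest for 6 of 8 macrophage markers as well, and it had the highest oocyte sum (1596 CPM). The theca median against the 6-ovary mean was 0.27 there and 0.34 in control replicate 2, which was highest for the same number of theca markers. Control replicate 1 came close to that oocyte sum, with 1564 CPM, and had the top value of 5 of 12 oocyte markers. Relative to the 6-ovary mean, its Srd5a1, Hsd11b2 and Akr1c18 stood at 0.06, 0.08 and -0.11. The same genes stood at 0.88, 0.64 and 0.87 for control replicate 3. Of the smooth muscle and pericyte list, 8 of 9 genes had a lower mean, with sums of 2015 to 2266 CPM against 1620 to 1857. Erythroid markers were higher in 5 of 5 genes and highest in DEHP replicate 1 (290 CPM), where Akr1c14 was lowest, and their part in its values was not tested. To Hsd11b1, oviduct epithelium markers had the highest median r (0.62, 6 genes, 0.09 to 0.93), followed by macrophage markers (0.59, 8 genes, 0.41 to 0.89), and theca markers had one of -0.75. Oviduct markers had a higher mean in the DEHP lineage in 5 of 6 genes, with sums of 25.8 to 38.6 CPM in the control and 33.1 to 39.3 CPM in the DEHP ovaries. Adipocyte markers summed to 478, 238 and 115 CPM in the control ovaries and 117, 1061 and 231 CPM in the DEHP ovaries, so DEHP replicate 2 stood apart. Macrophage markers were lowest in control replicate 2 (median -1.07), as was Hsd11b1, and highest in control replicate 3 (0.70), where Hsd11b1 was low (-0.52). The lowest markers of the adipocyte and macrophage lists were Lep (geometric mean 1.65 CPM in the control and 1.06 CPM in the DEHP ovaries) and Cd14 (1.84 and 2.53 CPM). The part of these lists in the level of Hsd11b1 was not tested. Luteal markers, a list that holds Akr1c18 itself, were lower in 3 of 6 genes. Their sum was 461 CPM in control replicate 3 and 233 to 290 CPM in the other ovaries. That ovary was highest for 2 of the 6, Akr1c18 and Cyp11a1. Cyp11a1, also on the theca list, made up most of the luteal sum in control replicate 3. It was at 8.41 log2 CPM there and at 6.63 to 7.45 in the others. Prlr, another abundant gene of the list, was highest in control replicate 2 (6.80, against 6.68 in control replicate 3). The part of luteal cells was not tested.

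**Figure D4:**
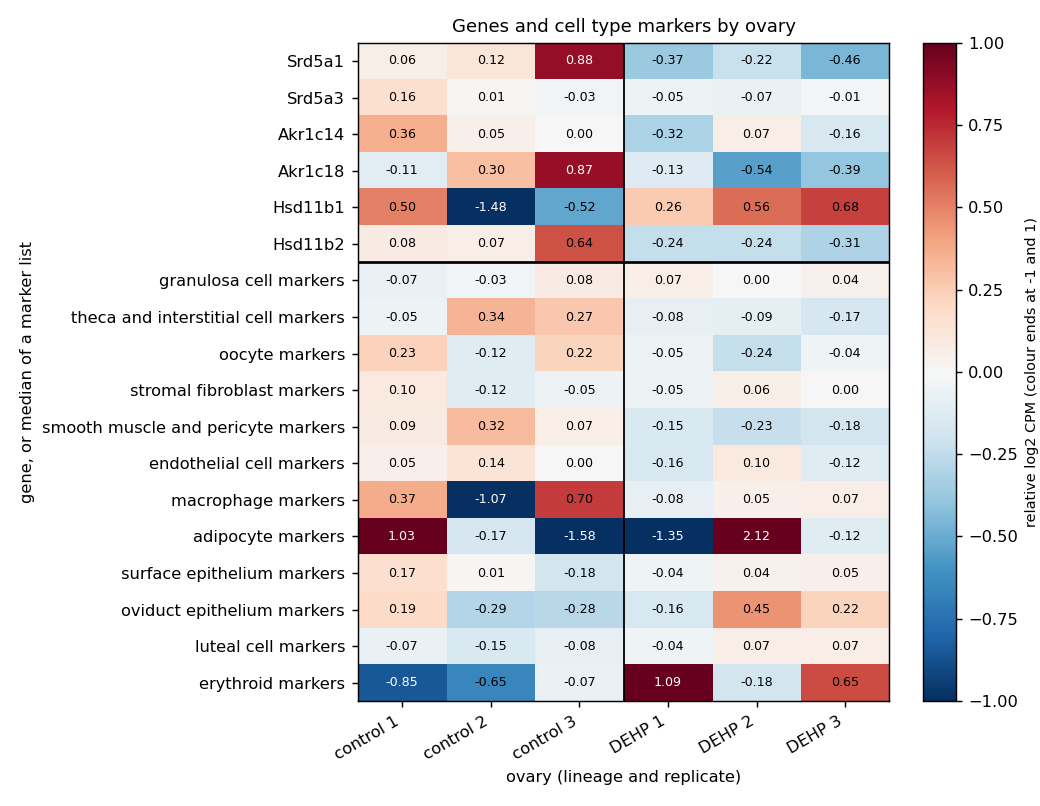
Log2 CPM of each gene, and median of each cell type marker list, against the 6-ovary mean (columns; colour and printed value). Control replicate 3 is highest for Srd5a1 (0.88), Akr1c18 (0.87) and Hsd11b2 (0.64), and adipocyte markers range from -1.58 in control replicate 3 to 2.12 in DEHP replicate 2.

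Of the other aldo-keto reductases, 10 of 16 listed were measured, and 8 had a lower and 2 a higher mean in the DEHP lineage, with a median of -0.17. The limma fit called 0 of them. Akr1b8, an aldose reductase-like enzyme, was at log2 CPM of 4.78, 4.85 and 4.88 in the control ovaries and 4.54, 4.29 and 4.46 in the DEHP ovaries. All DEHP ovaries lay lower, with a difference of -0.41 (SE 0.11, adjusted p 0.42). Akr1c13 was at 1.59, 1.41 and 0.60 in the control ovaries and 1.64, 3.97 and 2.27 in the DEHP ovaries, with DEHP replicate 2, the ovary with the most adipocyte marker RNA, far above the rest. Its difference of 1.43 (SE 0.59, adjusted p 0.564) was 0.76 without that ovary. Akr1cl had the highest CPM of the family, not divided by gene length, at 10.31 to 10.72 log2 CPM in all 6 ovaries. Its difference of -0.10 was -0.06 without control replicate 1, -0.17 without DEHP replicate 1 and 0.02 without DEHP replicate 2. Akr1a1, the aldehyde reductase, had a difference of -0.07 (SE 0.076) with lineages that did not overlap, and one of -0.04 without control replicate 1. Akr1b3 had a difference of -0.16, which was -0.06 without control replicate 3. The differences of Akr1b10 (-0.19) and Akr1e1 (-0.18) moved with most ovaries left out, over -0.37 to -0.02 and -0.40 to 0.22. That of Akr1b10 was nearest 0 without control replicate 2, and that of Akr1e1 was above 0 without control replicate 1 or DEHP replicate 2. Akr1c19 and Akr1c21, both near 0 log2 CPM, had differences of -0.47 and -0.46, the latter -0.06 without DEHP replicate 2 and -0.73 without DEHP replicate 1. Akr7a5 had a difference of 0.08, and of 0.12 without DEHP replicate 2.

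Glucocorticoid supply and response genes were mostly higher in the DEHP lineage, 13 of 16 measured, with a median difference of 0.18 against -0.01 over all genes. The lineages did not overlap for 8 of the 16, 7 of them higher and 1 lower, beside 22.9% of all genes. None passed the adjusted p of the limma fit (0 of 16), while 6 had an unadjusted p under 0.05, as had 8.78% of all genes. This list too was chosen with earlier results of these data known, so nothing is read from these shares. Pdk4, a kinase that holds back pyruvate dehydrogenase, was at log2 CPM of 4.53, 4.91 and 4.30 in the control ovaries and 5.30, 5.21 and 5.27 in the DEHP ovaries. Its difference was 0.68 (SE 0.16, adjusted p 0.382). The metallothionein genes Mt2 and Mt1 had differences of 0.65 (SE 0.2, adjusted p 0.491) and 0.29 (SE 0.11, adjusted p 0.514), and all DEHP ovaries lay above all control ovaries for both. Lcn2, a lipocalin, had a difference of 1.63 (SE 0.53, adjusted p 0.491). Its level was low, with geometric means of 0.805 CPM in the control and 2.5 CPM in the DEHP ovaries. Named after their values were seen, Zbtb16, Sgk1 and the mineralocorticoid receptor gene Nr3c2 had differences of 1.69, 0.93 and 0.64. Without DEHP replicate 2 the first was 0.96 and the second 0.54, and without control replicate 2 that of Nr3c2 was 0.36. Lcn2, Zbtb16 and Sgk1 were each highest in DEHP replicate 2 (2.19, 3.88 and 6.69 log2 CPM), the ovary with 1061 CPM of adipocyte markers, and what part these had was not tested. Other glucocorticoid targets, also named afterwards, had no higher mean: the difference was -0.12 for Tsc22d3, -0.26 for Klf9 (-0.16 without control replicate 2) and -0.0027 for Dusp1, which ranged from -0.07 to 0.08 with 1 ovary left out and was 0.0075 after median centring. The receptor gene Nr3c1 had a difference of 0.08, over a range of 0.02 to 0.16. H6pd, which supplies the cofactor of HSD11B1, had a difference of 0.18, and of 0.11 without control replicate 3.

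Steroid synthesis genes, which make the substrates of these enzymes, were lower in 9 of 13 measured, with a median of -0.07 and 0 called. Cyp17a1, the androgen-forming enzyme, was at log2 CPM of 5.06, 7.12 and 7.16 in the control ovaries and 5.85, 5.16 and 5.19 in the DEHP ovaries. Control replicate 1 was as low as the DEHP ovaries, and the difference of -1.05 (SE 0.54, adjusted p 0.631) was -1.74 without it, with an adjusted p of 0.0304 by limma. It was -0.71 without control replicate 2 (adjusted p 0.79) and -0.69 without control replicate 3 (adjusted p 0.848). Star, the cholesterol carrier of the mitochondrion, Fdx1, an electron donor of side-chain cleavage, and Hsd17b3 had differences of -0.54, -0.45 and -0.66. Hsd17b3 was as low as Akr1c18, with geometric means of 0.728 CPM in the control and 0.459 CPM in the DEHP ovaries. Without control replicate 3, Fdx1 was at -0.19 and Hsd17b3 at -0.30, and without control replicate 2 Star was at -0.33. Without control replicate 1, Star was at -0.83 and Fdx1 at -0.69. In other steroid inactivation, 7 of 13 measured were lower, with a median of -0.03 and 0 called. The 4 smallest p values there were those of Sult1a1, a sulfotransferase (0.50), Cyp1b1, an estrogen hydroxylase (0.28), Dhrs9 (0.55) and Hsd17b2, which oxidises estradiol and testosterone (0.56), none with lineages apart. Each moved by over 1.5 times with 1 ovary left out: Sult1a1 was at 0.21 without DEHP replicate 2, Dhrs9 at 0.26 without control replicate 3 and Hsd17b2 at 0.33 without DEHP replicate 1 and 0.88 without DEHP replicate 2. Cyp1b1 was at 0.15 without control replicate 3 and 0.49 without control replicate 2. Levels were low for Dhrs9 and Hsd17b2, with geometric means of 1.31 and 0.741 CPM in the control and 1.93 and 1.09 CPM in the DEHP ovaries.

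Among steroid receptors, 5 of 6 had a lower mean, with a median of -0.11 and 0 called. The progesterone receptor gene Pgr was at log2 CPM of 2.73, 2.23 and 3.38 in the control ovaries and 1.88, 2.18 and 1.91 in the DEHP ovaries, with control replicate 3 again highest and the lineages apart by a small margin. Its difference was -0.79 (SE 0.3, adjusted p 0.539), and -0.49 without control replicate 3. The membrane components Pgrmc2 and Pgrmc1 were at -0.12 and -0.16 and Esr1 at -0.10. Pgrmc1 was at -0.08 without DEHP replicate 2, -0.10 without control replicate 2 and -0.26 without control replicate 3, and Esr1 ranged from -0.21 without control replicate 3 to -0.01 without control replicate 1. In the list of genes tied to luteal progesterone breakdown, 4 of 9 were lower and 5 higher, with 0 called. Nr4a1 and Junb, immediate early transcription factors, had differences of 0.35 and 0.42 with lineages apart. Nr5a1 and the prolactin receptor gene Prlr had differences of -0.20 and -0.33, the latter -0.20 without control replicate 2 and -0.53 without control replicate 1. For the dolichol pathway served by SRD5A3, 14 of 21 measured were lower, with a median of -0.04 and 0 called. Alg2 (-0.17), Dolk (-0.14), Alg9 (0.10) and Alg8 (0.29) had the smallest p values. Without DEHP replicate 2 Alg8 was at 0.16, and Alg9 was at 0.04 without control replicate 3 and 0.15 without control replicate 1.

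**Figure D5:**
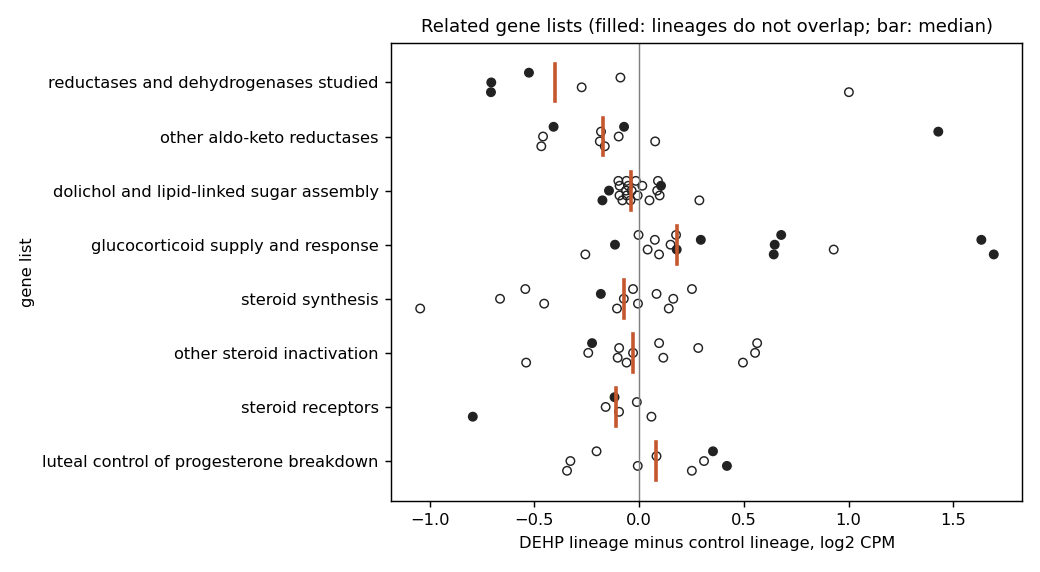
DEHP lineage minus control lineage in log2 CPM for each measured gene of the related lists (rows), filled where the lineages do not overlap, with the median of each list as a bar. Medians run from -0.40 for the genes described here to 0.18 for glucocorticoid supply and response.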

How the data were processed

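Polyadenylated RNA of 6 whole ovaries, 3 per lineage, was sequenced for 101 cycles, per the labels' protocols. The submitters' processing notes name STAR 2.5.3a, Trimmomatic 0.36, FastQC 0.11.5, bcl2fastq 2.17.1.14, edgeR 3.20.5 with R 3.4.3, and Subread 1.5.2 with featureCounts, on GRCm38.p6, without settings. The authors deposited log2 CPM per ovary, with a surrogate variable removed per the name of the table. Beside it they deposited a p-value, an adjusted p and a fold change per gene. Depth is unknown.

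Lineages were compared across all 16454 genes with limma 3.58.1 in R 4.3.3 (mean-variance trend, two-sided, Benjamini-Hochberg, threshold 0.05). The residual degrees of freedom were 3, since the deviations from the lineage means filled 3 directions of 4. With 1 ovary left out they were 2.02 to 2.98. On simulated data for this comparison (16454 genes, 200 changed, 20 simulations), 4.31% of calls were false, and 56.9% and 80.2% of genes changed by log2 values of 1 and 2 were recovered. With 4 degrees of freedom 21.2% of calls were false. The simulated noise was independent between genes and had the same SD in both lineages, so these rates need not hold for the real ovaries. An exact permutation test of 3 against 3 cannot go below p = 0.1 and was not used.

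The members, the gene lists and the tests were chosen with earlier results of these data known. Named were all members, all other aldo-keto reductases measured, the 4 genes with the smallest p of each other list, and the 3 genes of mean log2 CPM of at least 1 most correlated with each member above that level, with the marker list of highest median correlation. Others, and other marker lists, were chosen after their values were seen. Positions are RefSeq's and exon lengths GENCODE M21's, both for GRCm38. Alternatives were 4 degrees of freedom, median centring, quantile normalization, a replicate block, log2(CPM + 1), only genes of mean log2 CPM of at least 1, no trend, DEHP replicates 1 and 3 averaged, each ovary left out and another gene length.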

Additional observations from a re-analysis of the deposited data

How the results depend on the processing

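The count of 7 genes called across the table was 20 with 4 residual degrees of freedom, 3 after quantile normalization and 1 without the mean-variance trend. Leaving out 1 ovary gave 3 to 31 calls: 18 without control replicate 1, 31 without DEHP replicate 2, and 3 without control replicate 2 or DEHP replicate 3. The cause was not tested. None of the 6 measured members was called by limma under the 14 alternatives (13 for Akr1c18 and Hsd11b1, which the filter removes), and their lowest adjusted p was 0.21, for Hsd11b2. Their differences kept their signs under these alternatives. Of 88 genes on the related lists, 0 were called, and 0 to 1 with an ovary left out, the 1 being Cyp17a1 without control replicate 1. Leaving out 1 ovary moved the difference of 35 of the 48 named genes by over 1.5 times. The 48 include 8 named afterwards, for which the alternatives were added after seeing the data. Of 664 values, 6 changed sign. Dusp1 was at 0.0075 after median centring and ranged from -0.0712 to 0.0846 with 1 ovary left out, Akr1cl ranged from -0.1702 to 0.0219 and Akr1e1 from -0.3996 to 0.2223 with 1 ovary left out. With the longest transcript as length, Srd5a3 was at 13.5 and Hsd11b1 at 0.672 CPM per kb, against 6.45 and 0.313. After seeing the data, the correlation of Srd5a1 and Hsd11b2 was computed without each ovary (0.97 to 1.0) and from deviations from lineage means (0.98). The former values still hold the gap between lineages, and the latter still holds control replicate 3. Among the 3 DEHP ovaries alone the correlation was 0.74.

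With the replicate block 6 genes were called, none of them a member. In the deposited values same-numbered ovaries did not deviate together, with correlations of -0.33, -0.003 and -0.20. The removed direction had weights of the same sign on both ovaries of replicate 1 and of replicate 3. It can have taken out what those ovaries shared, so whether the numbers pair the ovaries cannot be told from these values.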
